A study of Homo sapiens with 4 samples.

Results

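Cytosolic nucleic acid sensing was described here through 10 genes: cGAS (listed under its older symbol MB21D1), STING (TMEM173), the nuclease TREX1, the RNA sensors RIG-I (DDX58), MDA5 (IFIH1) and LGP2 (DHX58), their adaptor MAVS, the endosomal RNA receptor TLR3, and the kinases TBK1 and IKBKE. They were chosen by name, and all 10 were found among the 55764 gene names in the FPKM table (reads scaled to gene length and to the size of the library). The cells were TE5, a human oesophageal squamous cell carcinoma line. For 2 libraries the cells stably carried a vector expressing the transcription factor ETS1 from a CMV promoter, and for the other 2, the controls, they held its empty backbone (genotype tag WT). The protocol describes lentivirus packaged in HEK293T cells for both groups, followed by selection, so infection is shared by the controls. The labels do not say whether the cells are a pool or a clone, nor whether replicates 1 and 2 are separate cultures, so p-values measure only the spread between these libraries, which may be technical.

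Cells detect misplaced or foreign nucleic acid with a small set of receptors. cGAS binds DNA in the cytosol and makes the messenger cyclic GMP-AMP, which activates STING on the endoplasmic reticulum, while TREX1 degrades DNA before cGAS can meet it. RIG-I and MDA5 bind double-stranded or uncapped RNA and signal through MAVS on mitochondria, and LGP2, which lacks the signalling domains, modulates them. TLR3 reads double-stranded RNA in endosomes. All of these routes meet at the related kinases TBK1 and IKBKE (IKK-epsilon), which phosphorylate the factors that switch on interferon genes, and many tumour lines express little cGAS or STING.

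The libraries held 40505239 and 44281805 reads assigned to genes in the controls and 57505841 and 56737035 in the ETS1 group, which was 1.35 times deeper. ETS1 itself stood at 0.491 and 0.509 FPKM in the controls and 1.84 and 1.87 FPKM in the ETS1 libraries, in the direction of the labels. Of 6 epithelial markers, 3 had a mean of at least 1 FPKM (KRT8, KRT18 and EPCAM), with a sum over the list of 16.1 to 16.3 FPKM in the controls and 16.9 to 17.0 in the ETS1 group. Within that sum KRT8 rose from a mean of 3.89 to 6.53 FPKM (limma adjusted p 0.000591) and KRT18 fell from 10.4 to 8.32 FPKM (limma adjusted p 0.00223). Of 6 squamous markers, 0 reached 1 FPKM, and KRT4 was listed at 0 in all 4 libraries. Among markers of other cell types, the 8 leukocyte genes summed to 1.26 and 1.55 FPKM in the controls and 1.97 to 2.08 in the ETS1 group, while the pan-leukocyte gene PTPRC was at most at 0.0117 FPKM. The 6 fibroblast genes summed to 2.13 to 2.28 and 3.09 to 3.19 FPKM, almost all of it COL1A1, with COL1A2 listed at 0 in both controls. The 4 endothelial genes found of 5 summed to at most 0.127 FPKM.

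In the DNA-sensing route the sensor stayed at trace level, STING went up from a low level and TREX1 went down. MB21D1 (cGAS; chromosome 6, 73413515 to 73452276, minus strand, in GENCODE 29 and GRCh38) showed 0.0774 and 0.109 FPKM in the controls and 0.0713 and 0.106 FPKM with ETS1 (13 and 20 reads against 17 and 25). The groups overlapped. The ratio of the read rates, ETS1 over control, was 0.945 with an exact 95% interval of 0.585 to 1.54, which covers counting error only. Ratios within that interval cannot be told apart with these reads. In GENCODE 29, 180 exonic bases of the gene are shared with DDX43 on the opposite strand, and whether the counting used strand is not given in the sources used here.

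TMEM173 (STING; chromosome 5, 139475534 to 139482935, minus strand) had 0.148 and 0.176 FPKM in the controls and 0.547 and 0.472 FPKM with ETS1 (23 and 30 reads against 121 and 103). Both ETS1 values lay above both controls, and the read rate was 3.14 times higher (exact 95% counting interval 2.32 to 4.32). Its mean of under 1 FPKM kept it out of the main test. It rose in the 2 fits that could test it, by 1.63 with a standard error of 0.25 on the log2 scale of reads (limma voom adjusted p 0.000125), and by 0.38 on the log2(FPKM + 1) scale with no filter (limma adjusted p 0.021). In bulk RNA, a change in how many cells express a gene and a change in RNA per cell cannot be told apart.

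TREX1 (chromosome 3, 48465811 to 48467645, plus strand), the main cytosolic DNA exonuclease, had 5.48 and 5.19 FPKM in the controls and 2.92 and 2.96 FPKM with ETS1 (487 and 504 reads against 368 and 369). Both ETS1 values were below both controls, and the mean level fell 1.81-fold, against a replicate difference of at most 1.06-fold. The change on the log2(FPKM + 1) scale was -0.68 with a standard error of 0.044 (limma adjusted p 0.000663), and the log2 fold change in the authors' deposited table is -0.85. Measured within each library, TREX1 was 37.1 and 29.4 times the level of TMEM173 in the controls and 5.33 and 6.27 times in the ETS1 group. These ratios use FPKM, which is per length.

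All 1515 exonic bases of TREX1 in GENCODE 29 are also exonic in ATRIP, a checkpoint gene on the same strand, so the division of reads between them is uncertain. The authors' values imply a length of 2195 bases for TREX1, longer than its GENCODE 29 span, so they counted over another gene model, whose overlap with ATRIP was not tested. ATRIP had 8.19 and 8.36 FPKM in the controls and 6.34 and 6.27 FPKM in the ETS1 libraries, a change of -0.34 (limma adjusted p 0.00153). Of the 50 nearest tested protein-coding genes around TREX1, 33 were called lower and 8 higher, with a median log2 change of -0.21, and 2 of them were lower than TREX1. With that local median removed, TREX1 changed by -0.48 (limma adjusted p 3.48e-05). The part of the region and of ATRIP in the fall was not otherwise tested.

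**Figure D1:**
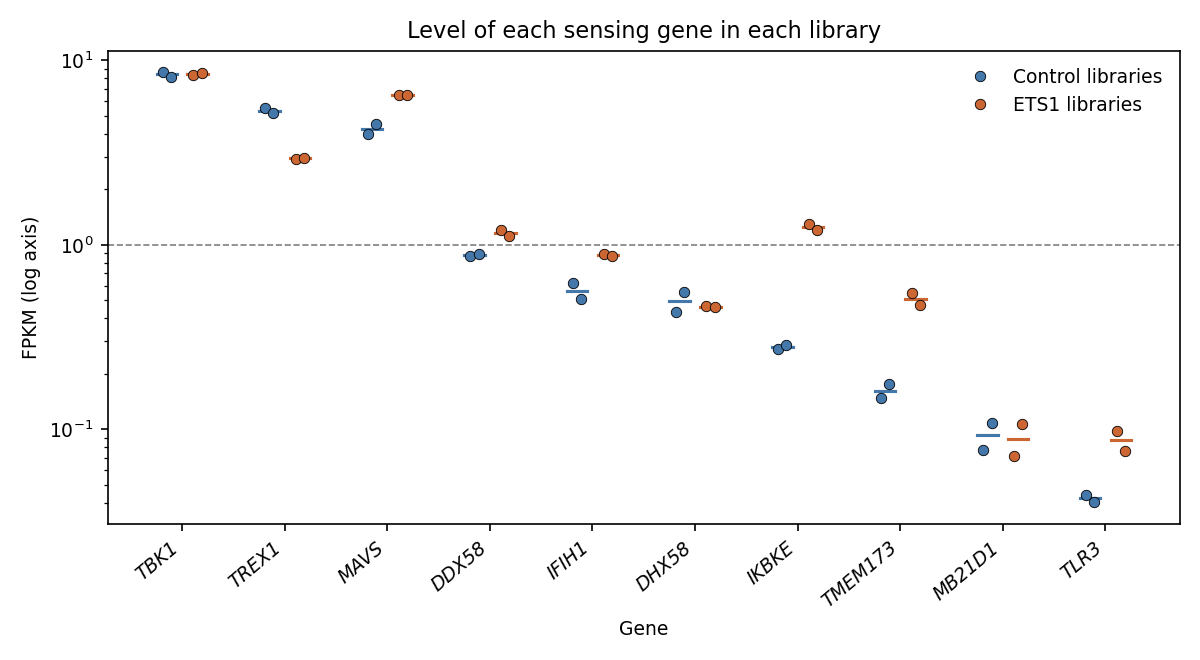
Level of each sensing gene in each library: FPKM on a log axis for the 2 control (blue) and 2 ETS1 (orange) libraries, with short lines at the group means and a dashed line at 1 FPKM. TBK1, TREX1 and MAVS stood above 1 FPKM in all 4 libraries, and MB21D1 and TLR3 were at most at 0.109 FPKM.

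In the RNA-sensing route the adaptor MAVS was higher in the ETS1 libraries, MDA5 and RIG-I had higher values whose call depended on the test, and LGP2 overlapped between groups. MAVS (chromosome 20, 3846799 to 3876123, plus strand), the shared adaptor, had 3.98 and 4.50 FPKM in the controls and 6.51 and 6.49 FPKM with ETS1 (682 and 844 reads against 1584 and 1559). The groups did not overlap and the mean ratio was 1.53. MAVS rose by 0.52 on the log2(FPKM + 1) scale with a standard error of 0.058 (limma adjusted p 0.00212), and more than each of its 50 nearest tested neighbours, whose median was 0.092.

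DDX58 (RIG-I; chromosome 9, 32455705 to 32526324, minus strand) had 0.868 and 0.894 FPKM in the controls and 1.20 and 1.11 FPKM with ETS1 (183 and 206 reads against 360 and 329). The groups did not overlap, but the gene reached the filter of a mean of 1 FPKM only through the ETS1 libraries. Its change of 0.20 with a standard error of 0.065 did not pass (limma adjusted p 0.051). On reads it passed, at 0.39 with a standard error of 0.11 (limma voom adjusted p 0.00848), while the authors' deposited table gives 0.29 with an adjusted p of 0.0635. With the median of its 50 neighbours removed, the change was 0.072 (limma adjusted p 0.26).

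IFIH1 (MDA5; chromosome 2, 162267079 to 162318703, minus strand) had 0.624 and 0.506 FPKM in the controls and 0.894 and 0.871 FPKM with ETS1 (114 and 101 reads against 232 and 223). The groups did not overlap, and the mean ratio of 1.56 exceeded the 1.23-fold difference between the controls. Under the filter it was not in the main test. It rose on reads by 0.66 with a standard error of 0.15 (limma voom adjusted p 0.00214), and the authors' deposited table gives 0.49 with an adjusted p of 0.0135. On the log2(FPKM + 1) scale with no filter it did not pass, at 0.27 (limma adjusted p 0.0832).

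DHX58 (LGP2; chromosome 17, 42101404 to 42112733, minus strand) had 0.432 and 0.554 FPKM in the controls and 0.463 and 0.460 FPKM in the ETS1 libraries. Both ETS1 values lay between the controls. The read rate ratio was 0.931 with an exact 95% counting interval of 0.753 to 1.15 (67 and 94 reads against 102 and 100). Of the 3 RIG-I-like receptors, 2 (RIG-I and MDA5) had groups that did not overlap, as did 55.9% of all genes with any FPKM. The differences between their changes were not tested.

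The promoters of MAVS and IFIH1 are shown because they hold short motifs of factor families relevant to the vector or the pathway. DDX58, whose read rate was also higher, and TREX1, whose level was lower, held none of the motifs searched in their windows and are not shown. Sequences are RefSeq's for GRCh38.p14, 5′ to 3′ on the gene's strand, before the annotated start. RefSeq promoters matched 7 of the 10 genes. In MAVS (chr20:3846584-3846818, plus strand) the capitals mark GGAAGT, an extended ETS core, once on each strand, beginning 207 and 198 bases before the RefSeq start. The MAVS sequence printed is the first 235 of the 250 bases before that start, and its end lies inside the GENCODE 29 gene, as does the end of the IFIH1 sequence. In IFIH1 (chr2:162318685-162318934, minus strand) the capitals mark 2 copies of GAAA with any 2 bases between them, a repeat bound by interferon regulatory factors. It has 2 overlapping matches on the opposite strand, from 159 and 153 bases before the start, and 1 match on the gene's strand from 21 bases before it.
MAVS: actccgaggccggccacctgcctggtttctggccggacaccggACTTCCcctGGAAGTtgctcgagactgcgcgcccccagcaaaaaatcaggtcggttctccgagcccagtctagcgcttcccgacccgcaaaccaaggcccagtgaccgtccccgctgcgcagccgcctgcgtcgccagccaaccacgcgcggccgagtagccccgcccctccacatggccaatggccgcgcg
IFIH1: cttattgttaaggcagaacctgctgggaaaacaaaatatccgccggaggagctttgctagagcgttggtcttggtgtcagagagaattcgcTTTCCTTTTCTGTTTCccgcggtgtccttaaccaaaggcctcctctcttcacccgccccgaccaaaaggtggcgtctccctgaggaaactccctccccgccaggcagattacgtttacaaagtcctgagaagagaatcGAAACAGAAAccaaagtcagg
Searched on both strands of the window from 250 bases before to 50 after the start, GGAAGT was found in 22.8% and the GAAA repeat in 3.57% of 35116 RefSeq promoters. A match describes letters only and no binding was measured.

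TLR3 (chromosome 4, 186069152 to 186088069, plus strand), the endosomal receptor, was the least abundant of the 10 in the controls. It had 0.0441 and 0.0403 FPKM there, from 12 and 12 reads, and 0.0983 and 0.0761 FPKM with ETS1, from 38 and 29 reads. The groups did not overlap, and the read rate ratio was 2.07 with an exact 95% counting interval of 1.28 to 3.45. On reads it rose by 1.00 with a standard error of 0.35 (limma voom adjusted p 0.0278). On the log2(FPKM + 1) scale with no filter it did not pass, at 0.061 (limma adjusted p 0.13). Its promoter window held the GAAA repeat across the start and GGAAGT after it.

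Of the related kinases, TBK1 overlapped between the groups and IKBKE was 4.48 times higher with ETS1. TBK1 (chromosome 12, 64451880 to 64502108, plus strand) was the most abundant of the 10, with 8.60 and 8.14 FPKM in the controls and 8.29 and 8.47 FPKM in the ETS1 libraries. The ETS1 values lay between the controls. Its change was 0.0018 with a standard error of 0.040 (limma adjusted p 0.973), and the read rate ratio of 1.00 had an exact 95% counting interval of 0.958 to 1.05. TBK1 lies among genes with a median change of 0.12, and with that median removed it was -0.10 and passed as lower (limma adjusted p 0.0388). In GENCODE 29, 702 of its exonic bases are shared with the antisense gene AC135279.3.

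IKBKE (chromosome 1, 206470476 to 206496889, plus strand), the inducible relative of TBK1, had 0.272 and 0.287 FPKM in the controls and 1.30 and 1.21 FPKM with ETS1 (39 and 45 reads against 264 and 243). Every ETS1 value was at least 4.21 times every control value, and replicates differed by at most 1.07-fold. IKBKE was under the filter, and it rose in each of the 3 fits that could test it: by 2.15 with a standard error of 0.19 on reads (limma voom adjusted p 1.63e-06), by 2.07 in the authors' deposited table (adjusted p 1.83e-14), and by 0.82 on the log2(FPKM + 1) scale with no filter (limma adjusted p 0.00949). Genes in the authors' deposited table have a mean of at least 0.5 FPKM, which IKBKE reached only through the ETS1 libraries. It shares 156 exonic bases with the antisense gene C1orf147.

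Within each library, IKBKE stood at 3.16% and 3.52% of the level of TBK1 in the controls and at 15.6% and 14.3% in the ETS1 group. The ratios did not overlap between groups. On the log2 scale their difference was 2.16, and an exact two-sided permutation test gave p = 0.333, the smallest that 2 libraries against 2 allow. TBK1 thus remained the more abundant kinase transcript in all 4 libraries.

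The starts of the kinase genes are shown because both windows hold an ETS-type octamer. In IKBKE (chr1:206470226-206470475, plus strand) the capitals mark the GGAAGT of CAGGAAGT, which begins 33 bases before the RefSeq start. In TBK1 (chr12:64452100-64452129, plus strand, from 20 bases before the start) they mark the GGAAGT of CCGGAAGT, which crosses the RefSeq start. The GENCODE 29 start of TBK1 lies upstream, so the stretch shown is inside that gene.
IKBKE: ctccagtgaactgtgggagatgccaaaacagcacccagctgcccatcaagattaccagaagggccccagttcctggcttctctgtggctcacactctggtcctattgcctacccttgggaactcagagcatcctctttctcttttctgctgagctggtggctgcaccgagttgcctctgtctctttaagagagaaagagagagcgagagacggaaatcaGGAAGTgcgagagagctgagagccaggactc
TBK1: cggccagggcttgcgaagccGGAAGTgtcc
CAGGAAGT was found in 3.08% and CCGGAAGT in 4.14% of all RefSeq promoter windows of that length. Each was in 1 of the 7 sensing genes with a promoter, and GGAAGT, which lies within both, was in 4 of the 7.

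**Figure D2:**
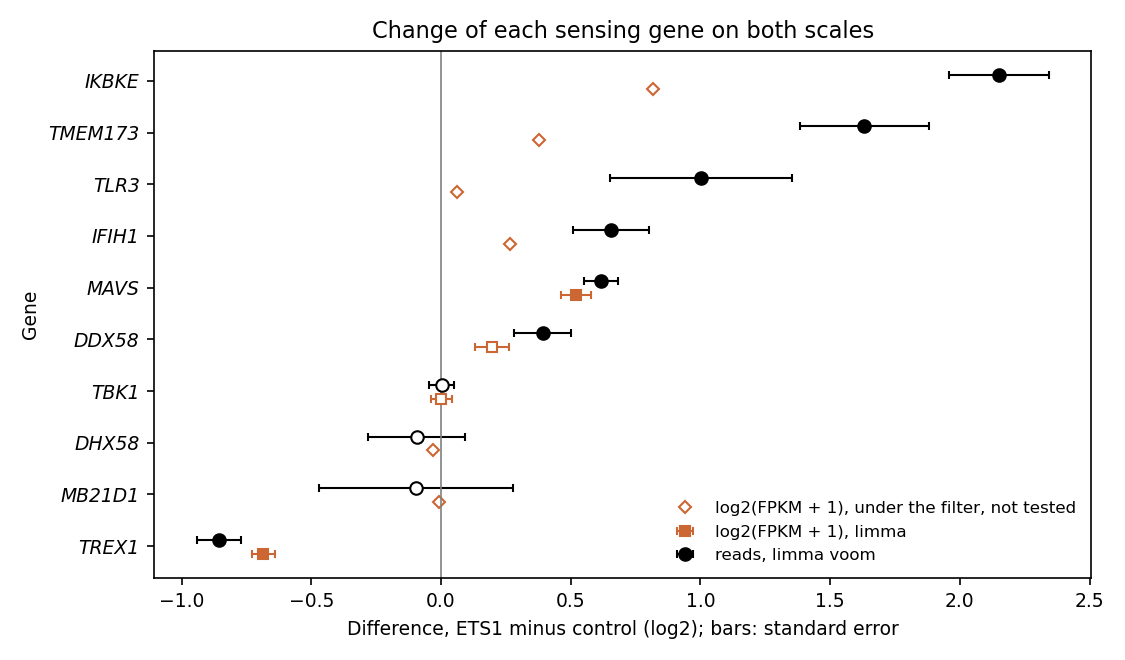
Change of each sensing gene on both scales: log2 difference, ETS1 minus control, on reads (black circles) and on log2(FPKM + 1) (orange), with bars for standard errors and filled symbols where the adjusted p was under 0.05. Open diamonds are genes under the filter of the main fit. IKBKE was at 2.15 on reads and 0.82 on log2(FPKM + 1), where low levels are compressed, and TREX1 was below 0 on both scales.

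By count, the main fit tested 4 of the 10 genes (TBK1, MAVS, DDX58 and TREX1) and called 1 higher (MAVS) and 1 lower (TREX1). Over the 14306 genes of that fit, 30.7% were called higher and 28.4% lower. The fit on reads held all 10 and called 6 higher and 1 lower, where 30.8% and 25.9% of its 18012 genes were called, so 6 of 10 was above the share of all genes called higher. With no filter, limma called 3 of the 10 higher and 1 lower, where 10.3% and 9.24% of 35055 genes were called. A change of at least 2-fold higher on reads was called for 2.93% of genes in that fit. IKBKE and TMEM173 were among them, and TLR3 met the cut only narrowly. It was at 1.0027 on the log2 scale with a standard error of 0.35, from 12 to 38 reads per library. The median change of the 10 genes on reads was 0.50, beside 0.033 over all genes in the fit. In all, 6 genes had both ETS1 values above both controls, 1 had both below and 3 overlapped. Of the 35055 genes with any FPKM, 31.7% were separated upward and 24.2% downward, or 55.9% either way, and of the genes in the main fit 82.0% were separated. The authors' deposited table holds 6 of the genes and calls 3 higher and 1 lower, in a table that calls 51.2% of its genes either way.

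**Figure D3:**
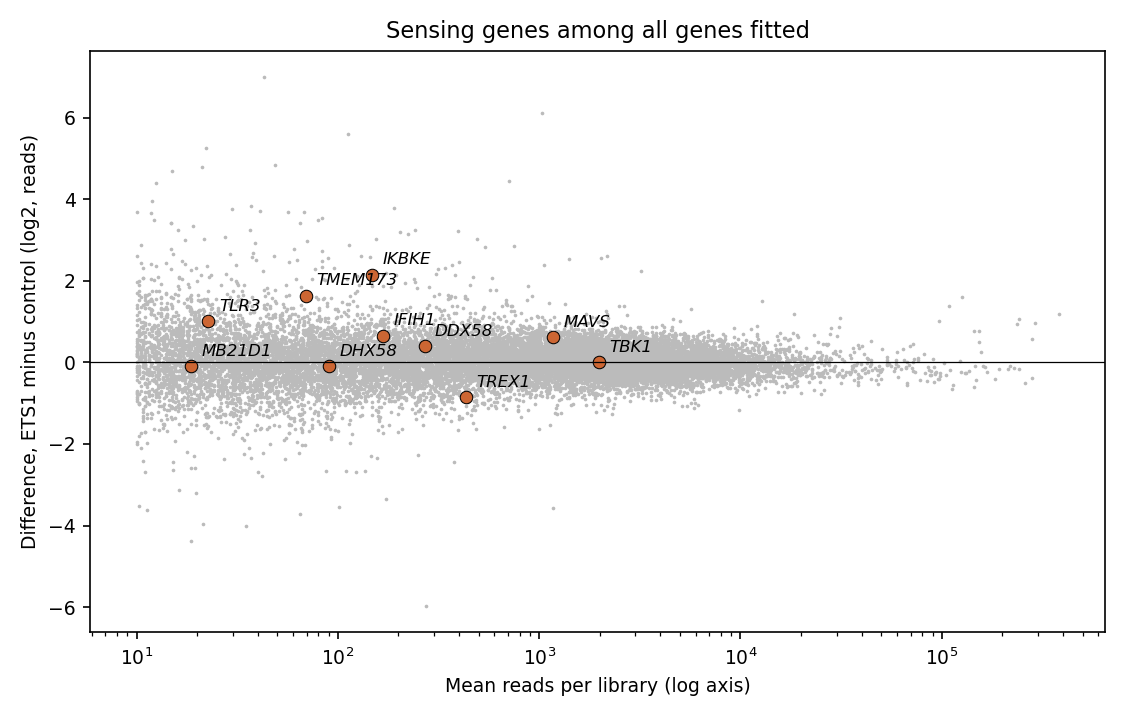
Sensing genes among all genes fitted: mean reads per library (log axis) against the log2 difference on reads, ETS1 minus control, for all 18012 genes (grey) and the 10 sensing genes (orange). IKBKE lies at 2.15 and TREX1 at -0.86, while MB21D1 (-0.096) and TLR3 (1.00) lie among the genes with few reads, where the scatter is wide.

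The order of levels changed in its middle. In the controls the means ran from TBK1 (8.37 FPKM) through TREX1 (5.33), MAVS (4.24), DDX58 (0.881), IFIH1 (0.565), DHX58 (0.493), IKBKE (0.279), TMEM173 (0.162) and MB21D1 (0.0931) to TLR3 (0.0422). Of neighbours in this order, the values of IFIH1 and DHX58 overlapped and the others did not. In the ETS1 libraries MAVS (6.50 FPKM) stood above TREX1 (2.94), and IKBKE (1.25) stood above DDX58 (1.16), IFIH1 (0.883), TMEM173 (0.510) and DHX58 (0.462). MB21D1 (0.0887) and TLR3 (0.0872) then overlapped. The level of MAVS rests on a length of 4233 bases implied by the authors' values, and with the 11764 bases of GENCODE 29 its means would be 1.53 and 2.34 FPKM. With GENCODE 29 lengths the ETS1 means would be 4.26 FPKM for TREX1, 1.18 for IKBKE and 1.39 for DDX58, so TREX1 would stand above MAVS and DDX58 above IKBKE there.

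The other genes of these routes were read from 11 lists of 157 genes, of which 119 were tested. Of these, 40 were called higher and 32 lower, or 60.5%, near the 59.1% of all tested genes called either way. The median log2 change over all tested genes was 0.016. Among 16 DNA sensor partners, 5 of 13 tested were higher and 5 lower (median 0.014). LRRFIP1, a nucleic acid binding protein, stood at 4.91 ± 0.010 FPKM (SD, n = 2) in the controls and 8.09 ± 0.093 FPKM (SD, n = 2) with ETS1. LRRFIP1 rose by 0.62, and by 0.21 with the local chromosomal median removed. HMGB2 rose by 0.25 (0.10 with that median removed). The cGAS cofactor ZCCHC3 was called higher, at 0.28, but reached the filter only through the ETS1 libraries, and it passed under 11 of 15 alternatives. It did not pass with no filter (limma adjusted p 0.0553) or without 1 library in 3 of 4 cases: Control replicate 1 (0.0518), ETS1 replicate 1 (0.0664) and ETS1 replicate 2 (0.0906). The DNA sensors AIM2 and ZBP1 were listed at 0 in all 4 libraries. IFI16, another DNA sensor under the filter, went from 0 and 4 control reads to 23 and 22 with ETS1 (limma adjusted p 0.0444 with no filter). It also passed on reads, but reached that fit's minimum mean of 10 reads only through the ETS1 libraries.

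Among genes of STING trafficking and turnover, 3 of 17 tested were higher and 5 lower (median 0.033). The largest called changes were falls, in USP18 (-0.44), a protease that removes ISG15 and an interferon brake, SURF4 (-0.41), which returns STING from the Golgi, and RHBDF2 (-0.32), a rhomboid protein that aids STING export. USP18 passed under 14 of 16 alternatives, losing its call with no filter (limma adjusted p 0.0852) and without ETS1 replicate 1 (0.0551). SURF4 was at -0.15 with the local chromosomal median removed. TRIM56, a ubiquitin ligase of this list, was under the filter and is named after its values were seen. It had 0.101 and 0.149 FPKM in the controls and 1.00 and 0.848 FPKM in the ETS1 libraries, a rise of 2.87 on reads (limma voom adjusted p 3.16e-06).

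Of 15 regulators of RIG-I-like receptors, 7 were higher and 2 lower (median 0.044). RIOK3 (0.52) and the ubiquitin ligase MEX3C (0.37) rose and TRIM65 (-0.37), the ubiquitin ligase of MDA5, fell. Of 17 tested MAVS partners, 6 were higher and 3 lower (median 0.097). TNFAIP3, which encodes the inhibitor A20, stood at 2.73 ± 0.0078 FPKM (SD, n = 2) in the controls and 7.36 ± 0.068 FPKM (SD, n = 2) with ETS1. It rose by 1.16 (limma adjusted p 0.000417). The adaptor TRAF5 (0.37, or 0.17 with the local median removed) and PCBP1 (0.35) also rose. PCBP1 passed under 14 of 16 alternatives and was at 0.23 without ETS1 replicate 2.

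Around the kinases, 4 of 12 tested adaptors and substrates were higher and 3 lower (median 0.030). The autophagy receptors OPTN (0.60) and SQSTM1 (0.29), both TBK1 substrates, rose and IRF7 (-0.84), the inducible interferon factor, fell. IRF7 reached the filter only through the controls, and with no filter its limma adjusted p was 0.0105. IRF3, the constitutive factor phosphorylated by these kinases, had 18.8 and 18.7 FPKM in the controls and 18.7 and 17.8 FPKM in the ETS1 libraries, and did not pass (limma adjusted p 0.391). It is named because the pathway runs through it, outside the naming rule. Of 14 genes of nucleic acid clearance and editing, 6 were higher and 6 lower (median 0.047). The RNA-activated kinase EIF2AK2 (0.47) rose, and RNASEH2B (-0.56), a subunit of the enzyme that removes RNA from DNA hybrids, fell.

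Among endosomal receptors and their helpers, 3 of 9 tested were higher and 2 lower (median 0.066). MYD88, the adaptor of most Toll-like receptors, stood at 0.418 ± 0.10 FPKM (SD, n = 2) in the controls and 1.59 ± 0.0066 FPKM (SD, n = 2) with ETS1. It rose by 0.87 (limma adjusted p 0.00131). MYD88 reached the filter only through the ETS1 libraries, and with no filter its limma adjusted p was 0.0127. IRAK4 rose by 0.42 (0.28 with the local median removed). CTSB fell by 0.34, and that call was lost with the local chromosomal median removed (-0.032, limma adjusted p 0.492). TLR7, TLR8 and TLR9 were at most at 0.0068 FPKM. Of 11 subunits of RNA polymerase III, which can turn cytosolic DNA into RNA for RIG-I, 0 were called higher and 5 lower (median -0.18), with 0 higher and 6 lower by limma voom on reads. Of all genes in the main fit, 28.4% were called lower and 59.1% either way, and on reads 25.9% were called lower. POLR3D (-0.66), POLR3K (-0.50) and POLR3C (-0.37) fell. With the local chromosomal median removed, POLR3D was at -0.26. At an unadjusted p under 0.05, 9219 of all tested genes passed.

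**Figure D4:**
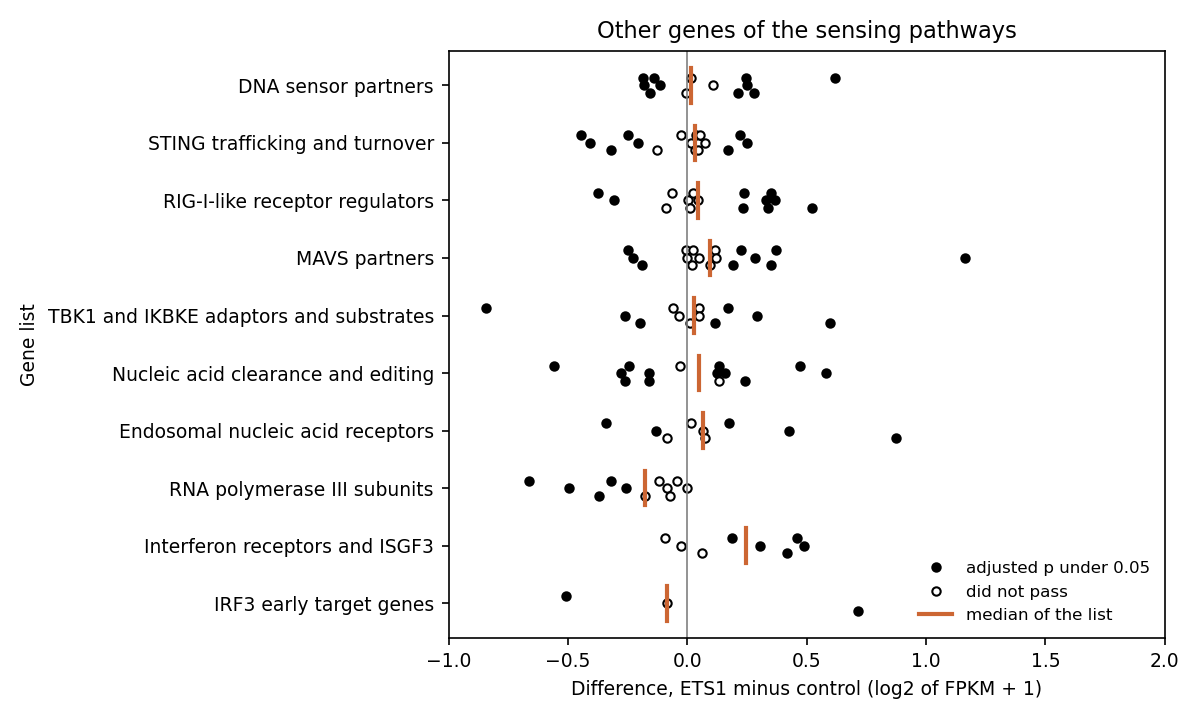
Other genes of the sensing pathways: log2(FPKM + 1) difference, ETS1 minus control, for each tested gene of 10 lists, with filled points where the limma adjusted p was under 0.05 and an orange line at each list's median. Medians ran from -0.18 for RNA polymerase III subunits to 0.25 for interferon receptors and their signalling factors.

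Downstream, interferon transcripts themselves were scarce. Of 21 interferon genes, 2 and 7 had any FPKM in the controls and 8 and 8 in the ETS1 libraries, and the highest value in any library was 0.144 FPKM (IFNE). IFNB1, the main product of these routes outside blood cells, was listed at 0 in both controls and had 2 reads and 1 read in the deeper ETS1 libraries. The interferon alpha genes are near-identical copies, so reads between them are uncertain. Of 8 tested interferon receptor and signalling genes, 5 were called higher and 0 lower (median 0.25), with 5 and 0 by limma voom on reads. In the main fit 30.7% of all genes were called higher and 28.4% lower, and on reads 30.8% and 25.9%. JAK1 (0.46) and STAT2 (0.42) rose, and with the local median removed JAK1 was at 0.275. Of 10 genes that IRF3 switches on early, 3 were tested. IFIT1 rose by 0.71, from 0.773 ± 0.049 to 1.91 ± 0.042 FPKM, and ISG15 fell by 0.51, from 18.5 ± 0.86 to 12.7 ± 1.0 FPKM (SD, n = 2 each), while HERC5 did not pass (-0.084, limma adjusted p 0.153). IFIT1 reached the filter only through the ETS1 libraries, and with no filter its limma adjusted p was 0.0113. Of the 7 genes of this list under the filter, IFIT3 and IFIT2 passed with no filter and the other 5 did not (CXCL10, CCL5, RSAD2, OASL and IFI44, limma adjusted p 0.0835 to 0.669). IFIT3 had 0.431 and 0.385 FPKM in the controls and 1.12 and 0.902 FPKM with ETS1 (limma adjusted p 0.033 with no filter), and IFIT2 had 0.127 and 0.162 against 0.469 and 0.566 FPKM (limma adjusted p 0.0225 with no filter).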

How the data were processed

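RNA from 4 TE5 samples was profiled by bulk RNA-seq, with 2 libraries in each of 2 groups. The tables hold FPKM computed by the authors. HISAT2, HTSeq, DESeq2 and the GRCh38 build are named in the submitters' processing notes. The annotation and strand setting are not given in the sources used here. A second deposited table holds the authors' mean normalized count per gene (a signal averaged over libraries), log2 fold changes with standard errors, p-values and adjusted p-values, per the file headers.

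Genes with a mean of at least 1 FPKM were tested with limma 3.58.1 on log2(FPKM + 1), with a group term, a variance trend, two-sided tests and Benjamini-Hochberg adjustment over all 14306 genes at 0.05. This scale understates changes of low genes. An exact permutation test cannot go below 0.333 with 2 against 2. Reads were recovered because FPKM times length and library total gave whole numbers: 99.67% of values in the comparison table came within 0.05 of one. Lengths came from the authors' mean normalized count or, for 4 sensing genes, from GENCODE 29 exons less 1 base per exon block, and gave whole reads for all 10. These reads, for genes with a mean of at least 10, entered limma voom as an alternative. Intervals are exact binomial and cover counting error only. The fit was also run on simulated data, and its outcome there is not reported here. The text names the 10 genes, ETS1, and up to 3 genes of each list, those that passed with the greatest absolute change. ATRIP, IRF3, TRIM56, IFI16, IFIT2, IFIT3, the other IRF3 targets under the filter, HERC5, IFNB1, IFNE, genes at or near 0 and cell markers are exceptions, named after their values were seen. Some genes that the rule names are not reported here. Genes and lists were chosen with earlier results of these data known. The alternatives were other pseudocounts (0.1 and 0.5 FPKM), no filter or a mean of at least 5 FPKM, trimmed-mean scaling, quantile normalization, a replicate block, other variance priors, removal of the local chromosomal median (25 genes each side), the authors' values, voom, and leaving out each library.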

Additional observations from a re-analysis of the deposited data

How the results depend on the processing

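MAVS kept its call under 16 of 16 alternatives (change 0.44 to 0.62) and TREX1 under 15 of 15 (-0.86 to -0.48). DDX58 passed under 3 of 15, with an adjusted p from 0.00848 to 0.26, and TLR3 and IFIH1 under 1 of 2 and 2 of 3. The number of sensing genes called higher moved from 1 to 2 with no variance trend or a robust prior (DDX58 joined), to 3 with no filter, to 3 in the authors' deposited table and to 6 under limma voom on reads. The last 3 of these hold genes that the main filter leaves out, and the scale and model also differ for voom and the authors' values. The cause was not tested. The number called lower became 0 at a mean of at least 5 FPKM, where TREX1 was not tested, and 2 with the local chromosomal median removed, where TBK1 joined. MAVS reached the filter of 5 FPKM only through the ETS1 libraries (mean 4.24 FPKM in the controls and 6.50 with ETS1). The change of TBK1, near 0, turned sign under trimmed-mean scaling (-0.018), quantile normalization (-0.026), the local median (-0.10) and the authors' deposited table (-0.020), and ran from -0.034 to 0.037 when 1 library was left out. Over all genes, 4394 were called higher, 2562 at a mean of at least 5 FPKM, and 2845 to 3962 when 1 library was left out, with the fewest without ETS1 replicate 2. The other named genes kept direction and call in 461 of 470 fits and lost the call in 9. Across genes, the deviations of replicate 1 from its group mean were not correlated between the control and ETS1 groups (-0.05). That value cannot show whether the libraries were paired by culture or batch. The fit with a replicate block called 3712 genes higher and 3571 lower, against 4394 and 4057, with 1 sensing gene higher and 1 lower as before. Depth limits MB21D1 and TLR3, with 12 to 38 reads per library.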
